A study of Mus musculus with 4 samples.

Results

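Angptl4 and 9 other genes of the peroxisome proliferator-activated receptor (PPAR) system were followed in 4T1Br, a subline of the mouse mammary carcinoma line 4T1 that homes to brain (the sample titles say 4T1). The cells had been transduced with a lentivirus carrying a control hairpin (shControl) or 1 that targets YTHDF3 (shYTHDF3), a cytoplasmic protein that reads N6-methyladenosine in messenger RNA. The 10 members were 3 receptors (Ppara, Ppard and Pparg) and 7 classic targets (Angptl4, Plin2, Hilpda, Cpt1a, Pdk4, Fabp4 and Cd36), out of 22180 genes named on the array, and each was read by 1 probe set of its own. They were chosen from textbook knowledge of the pathway around Angptl4, with earlier results of these arrays known. Angptl4 itself was chosen by its difference between these same groups. The members' values, and the counts of members that passed a test, are therefore a description, and no p-value is printed for a member. Both groups carried a lentivirus, passed puromycin selection and grew in serum-containing medium, and each was measured on 2 arrays. The labels do not say how many hairpin sequences or clones were used, nor whether separate cultures stood behind the arrays, so the spread within a group may be technical.

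The PPARs are nuclear receptors activated by fatty acids and their derivatives. They bind DNA together with a retinoid X receptor (RXR), typically at direct repeats of the hexamer AGGTCA, and switch on genes for the transport, storage and oxidation of lipids. Angptl4 encodes a secreted glycoprotein that inhibits lipoprotein lipase and has been tied to vessel leakiness and metastasis; besides PPARs, hypoxia, glucocorticoids and TGF-beta signalling are known to induce it. Hilpda and Plin2 respond to hypoxia as well as to PPARs.

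Values are log2 units after robust multi-array averaging (RMA), and 1 unit is a 2-fold step. Levels of different probe sets cannot be set against each other, so only differences between arrays are compared. Background was set at log2 4.28, the mean that 95% of 1108 probe sets for olfactory receptors did not exceed, and limma was run on the 13056 genes whose mean passed it. Of the 10 members 5 lay above background: the targets Angptl4, Plin2, Hilpda and Cpt1a and the receptor Ppard. The other 5 (Pdk4, Fabp4, Cd36, Ppara and Pparg) lay below it on average.

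RefSeq promoter sequences (GRCm38.p6) of the members were searched for the PPAR hexamer AGGTCA and for the hypoxia-factor cores ACGTG and GCGTG, on both strands, over the 250 bases before each listed start. Windows of 8 members were used, 11 in all; Angptl4 and Fabp4 were not analysed here for sequence. The stretches shown are those of the 3 targets lower in shYTHDF3 that had a window and, for contrast, that of the receptor Ppard. Sequences run 5′ to 3′ on the strand of the gene, and capitals mark a match or its reverse complement, where bases of overlapping matches are marked once.
Plin2, chr4:86670218-86670309, minus strand: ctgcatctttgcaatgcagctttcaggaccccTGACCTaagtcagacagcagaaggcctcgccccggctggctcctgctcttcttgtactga
Cpt1a, chr19:3323051-3323300, plus strand: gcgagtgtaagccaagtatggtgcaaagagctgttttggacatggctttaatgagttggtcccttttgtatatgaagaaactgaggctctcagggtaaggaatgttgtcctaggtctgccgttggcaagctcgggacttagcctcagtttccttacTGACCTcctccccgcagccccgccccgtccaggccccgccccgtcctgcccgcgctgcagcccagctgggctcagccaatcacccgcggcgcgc
Hilpda, first listed start, chr6:29272238-29272487, plus strand: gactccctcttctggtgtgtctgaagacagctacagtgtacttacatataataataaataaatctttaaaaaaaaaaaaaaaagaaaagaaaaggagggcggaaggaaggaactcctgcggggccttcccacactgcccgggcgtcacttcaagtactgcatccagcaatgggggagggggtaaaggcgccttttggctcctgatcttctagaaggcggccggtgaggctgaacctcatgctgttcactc
Hilpda, before the second listed start, chr6:29272571-29272600, plus strand: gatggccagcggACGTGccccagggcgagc
Ppard, chr17:28232504-28232753, plus strand: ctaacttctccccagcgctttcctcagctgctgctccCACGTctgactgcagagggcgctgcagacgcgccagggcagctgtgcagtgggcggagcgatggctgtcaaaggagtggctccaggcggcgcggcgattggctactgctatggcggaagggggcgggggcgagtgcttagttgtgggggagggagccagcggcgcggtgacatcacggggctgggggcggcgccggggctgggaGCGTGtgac

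The hexamer stood in reverse orientation 218 to 213 bases before the listed start of Plin2 and 94 to 89 bases before that of Cpt1a. Neither Hilpda window held it. A window of Cd36 and 2 windows of Pparg held it too, so 5 of 11 member windows had a match, against 14.0% of all 32851 windows of the same length. The exact direct repeat, with 1 base between hexamers, was found in no member window and in 11 (0.0335%) of all windows. No mismatch was allowed, so imperfect repeats were not searched for. The core ACGTG lay 43 to 39 bases before the second Hilpda start and, reversed, 213 to 209 bases before the Ppard start, and 16.6% of all windows held it. The core GCGTG occurred in 6 of the 11 member windows and in 28.2% of all windows; the windows of Hilpda (second start) and Plin2, both outside the stretches shown, and of Ppard were among them. These matches describe the letters only and say nothing of binding.

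Angptl4 showed the widest difference of the members. Its probe set (17343628) gave 7.35 and 7.39 with the control hairpin and 5.36 and 5.21 with shYTHDF3. All shYTHDF3 values lay far below all shControl values, by 1.99 to 2.18 log2 units for any pair of arrays, while arrays of one group differed by 0.040 (shControl) and 0.15 (shYTHDF3). The difference of means, shYTHDF3 minus shControl, was -2.08 (limma SE 0.10, n = 2 each), which left 23.6% of the shControl level. In order of difference Angptl4 stood at 6 from the lowest among the 13056 genes tested. The hairpin's own target, Ythdf3, went from 8.98 and 8.81 to 8.21 and 8.16, leaving 61.1%.

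The other targets above background were lower too, but by less. Cpt1a, which encodes the outer-membrane transferase that admits long-chain fatty acids to mitochondria, read 8.29 and 8.52 with the control hairpin and 7.75 and 7.69 with shYTHDF3. Its groups did not overlap, and its difference was -0.68 (SE 0.11), or 62.4% of the control level. Plin2, the perilipin that coats lipid droplets in most cells, read 9.91 and 10.16 with the control hairpin and 9.25 and 9.47 with shYTHDF3. Here the arrays of a group lay 0.24 and 0.22 apart, and the lowest control array still exceeded the highest shYTHDF3 array by 0.44; the difference was -0.67 (SE 0.13), or 62.7%. Hilpda, a small lipid droplet protein that inhibits the triglyceride lipase ATGL, read 7.44 and 7.23 with the control hairpin and 6.68 and 6.81 with shYTHDF3. Its difference was -0.59 (SE 0.11), or 66.3% of the control level, again without overlap.

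**Figure D1:**
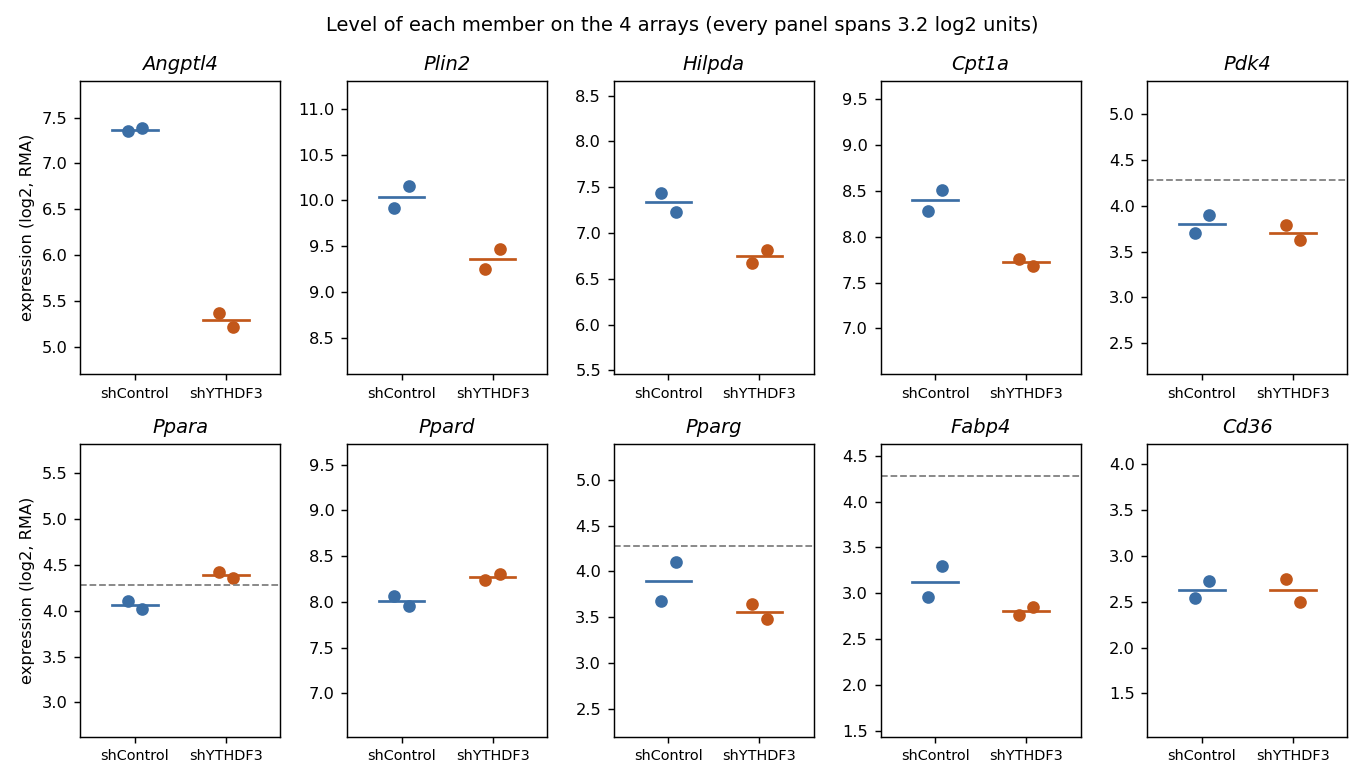
Expression (log2, RMA; y axis) of each of the 10 members on the 2 shControl and 2 shYTHDF3 arrays (x axis). Points are arrays, bars group means and the dashed line the background of 4.28, which lies above the panel for Cd36 and below the panels without a line. Angptl4 drops from about 7.37 to 5.29 on average, Plin2, Hilpda and Cpt1a are lower by 0.59 to 0.68, and Ppard is higher by 0.26.

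Thus 4 of the 4 targets above background had shYTHDF3 values wholly under the shControl values, a pattern held by 25.7% of all genes tested. By limma over all genes (adjusted p under 0.05), 2 of the 5 members above background were called lower, Angptl4 and Cpt1a, and 0 higher. Over all genes 1.45% were called lower and 1.28% higher. At an unadjusted p under 0.05 by limma, 4 members were lower and 1 higher, against 1354 and 1596 of all 13056 genes. Cpt1a lay just inside the threshold, and Plin2, with nearly the same difference and a wider spread, just outside. With an intensity trend in the variance model the 4 targets were all called lower, where 5.33% of all genes were. Since the members were proposed with these differences known, these shares are not evidence about the pathway. The Angptl4 call ended without shControl 1 or without shControl 2, and the Cpt1a call ended without any 1 of the 4 arrays, without the filter on dim genes and after repeated quantile normalization, where Hilpda was called in its place. Leaving out 1 array left the Angptl4 difference between -2.16 and -2.01.

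**Figure D2:**
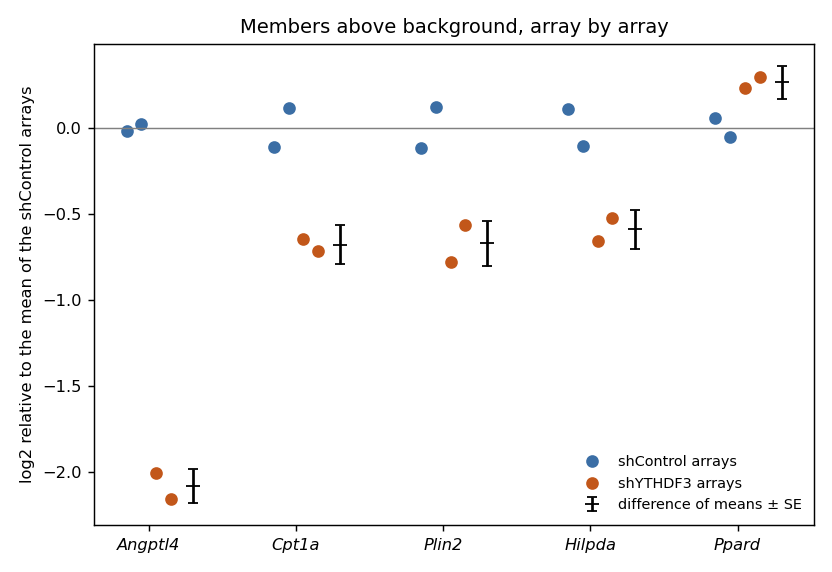
Each of the 5 members above background relative to the mean of its shControl arrays (y axis, log2), with 1 point per array and, to the right of each gene, the difference of means with limma's SE. The shYTHDF3 arrays of Angptl4 sit near -2.08, those of Cpt1a, Plin2 and Hilpda around -0.59 to -0.68, and those of Ppard above 0.

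Ppard, the only receptor above background on average, did not share that direction. This isotype, the most widely expressed across tissues, read 8.06 and 7.95 with the control hairpin and 8.24 and 8.30 with shYTHDF3. Its shYTHDF3 arrays were both higher, by 0.26 on average (SE 0.10, or 1.20-fold), as were those of 28.3% of all genes tested without overlap, and it was not called. Another probe set is annotated to both Ppard and 1810013A23Rik and was left aside; it read 4.46, 4.29, 3.95 and 4.84 on the same arrays in that order, with overlapping groups.

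Ppara, the isotype of liver and other fat-burning tissues, read 4.10 and 4.02 in shControl, under background, and 4.43 and 4.35 in shYTHDF3, just above it. Only the 0.11 between the background and its shYTHDF3 mean of 4.39 was measured above background. Pparg, the adipocyte isotype, read 3.68 and 4.10 with the control hairpin and 3.64 and 3.48 with shYTHDF3, below background on all arrays. Both shYTHDF3 arrays were the lower ones, by as little as 0.039, but its shControl arrays lay 0.43 apart, more than the 0.33 between group means, so no change is drawn from it.

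The remaining targets gave no level above background on any array. Pdk4, a kinase that inactivates pyruvate dehydrogenase, read 3.70 and 3.90 with the control hairpin and 3.79 and 3.63 with shYTHDF3, with overlapping groups. Fabp4, the fatty acid chaperone of adipocytes, macrophages and capillary endothelium, read 2.95 and 3.30 against 2.76 and 2.85. Cd36, a scavenger receptor and fatty acid translocase, read 2.54 and 2.72 against 2.75 and 2.50. These readings bound the level and do not show that it was unchanged.

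The genes around the members were taken from 12 lists of PPAR partners, further targets and other regulators, which held 161 different genes above background besides the members. Of these limma called 12 lower and 2 higher, where 1.45% of all genes tested were called lower and 1.28% higher. None of these calls held when 1 array was omitted, whichever it was, and such a fit leaves a lone array in a group. Without the filter on dim genes 3 pathway genes were called, and 43 with an intensity trend. Over all genes tested the median difference was 0.0057, 51.1% being higher.

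Receptor partners and coregulators were not lower with the targets. Of 16 genes above background 10 were higher and 6 lower, limma called 0 (5 higher at an unadjusted p under 0.05), and the median was 0.13, with 0.047 to 0.15 when an array was omitted. Rxra and Rxrb, the partners with which PPARs bind DNA, differed by 0.14 (SE 0.11) and 0.15 (SE 0.11), and Rxrg was below background; the RXR genes were picked out after their values were seen. The largest differences belonged to Ncoa1, a coactivator of nuclear receptors, at 0.67 (SE 0.14, limma adjusted p = 0.0653), and Lpin1, a phosphatidate phosphatase and coactivator, at 0.45 (SE 0.13, limma adjusted p = 0.131).

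Listed genes of mitochondrial fat oxidation other than Cpt1a kept to small differences, mostly upward. Among the 20 genes of this list above background 16 were higher and 4 lower, and limma called 0 (1 higher at an unadjusted p under 0.05). The differences ran from -0.20 to 0.29 with a median of 0.084. Eci1, an isomerase for unsaturated fatty acids, differed by 0.29 (SE 0.11) and Acadm, the medium-chain dehydrogenase, by 0.21 (SE 0.09). Cpt2, which works with Cpt1a in the same shuttle, differed by 0.16 (SE 0.12), and the neuronal paralog Cpt1c by 0.042 (SE 0.09); both were named after their values were seen. The 13 peroxisomal and omega-oxidation genes had a median of 0.0090, and -0.019 to 0.047 with 1 array left out. One of them was called: Decr2, a peroxisomal dienoyl-CoA reductase, rose from 8.28 and 8.25 to 8.83 and 8.85, by 0.58 (SE 0.09, limma adjusted p = 0.0389).

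Lipid droplet genes other than Plin2 and Hilpda had a median of 0.042 over 16 genes, of which 9 were higher and 7 lower (by limma 4 lower genes and 0 higher ones had an unadjusted p under 0.05, and 1 was called); the median was -0.035 without the filter and 0.013 to 0.075 with 1 array left out. Cav1, which encodes the caveolar coat protein caveolin-1, fell from 7.02 and 7.11 to 5.98 and 6.20, by 0.98 (SE 0.11, limma adjusted p = 0.0262). Plin3, the perilipin paralog found on nascent droplets, differed by 0.23 (SE 0.13), and Pnpla2, which encodes the lipase ATGL that HILPDA inhibits, by 0.23 (SE 0.09); Dgat2, a triglyceride synthase, differed by -0.64 (SE 0.12, limma adjusted p = 0.0588). Abhd5, the coactivator of ATGL, differed by -0.61 (SE 0.12, limma adjusted p = 0.0556). These 4 were named after their values were seen, and none passed the test.

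Genes of fatty acid uptake and binding went both ways, with a median of 0.056 over 12 genes, -0.032 without the filter and -0.0027 to 0.075 with 1 array left out. Lipg, an endothelial-type lipase for phospholipids, rose from 5.23 on both shControl arrays to 6.03 and 6.04, by 0.80 (SE 0.09, limma adjusted p = 0.0240). Acsl4, which activates polyunsaturated fatty acids, fell from 10.70 and 10.55 to 9.97 and 10.04, by 0.62 (SE 0.10, limma adjusted p = 0.0432). Fabp5, the Fabp4 paralog of epithelial cells, differed by 0.27 (SE 0.13), with 0.14 and 0.24 on its other probe sets above background; near-identical copies make its reading uncertain, and it was named after its values were seen. Lpl, the lipase that ANGPTL4 inhibits, was below background on all arrays (2.78 to 3.11). Adipocyte targets of Pparg had a median of 0.041 over 8 genes and -0.0011 without the filter, with 0 called by limma (1 lower at an unadjusted p under 0.05), the largest differences being those of Scd1, a desaturase, at -0.39 (SE 0.14) and Pck1, a gluconeogenic enzyme, at -0.25 (SE 0.14).

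Relatives and partners of Angptl4 and Pdk4 were mostly not called. Of 4 angiopoietin family genes above background none passed by limma (1 lower at an unadjusted p under 0.05); Angpt1, a ligand of the endothelial receptor Tie2, differed by -0.91 (SE 0.16, limma adjusted p = 0.0520; -0.047 on a second probe set below background) and Angptl8, whose product also controls lipoprotein lipase, by 0.11 (SE 0.10; named after its value was seen). Among 12 cleavage and binding partners of ANGPTL4, Fn1 (fibronectin) fell by 0.81 (SE 0.09, limma adjusted p = 0.0262) and 11 did not pass. Of 10 pyruvate dehydrogenase genes none passed by limma (at an unadjusted p under 0.05, 1 was higher and 1 lower), Pdk1 differing by -0.55 (SE 0.16) and Pdk2 by 0.47 (SE 0.14); a second Pdk1 probe set, below background on average, differed by 0.17.

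For regulators other than PPARs that are known to act on Angptl4, the expression of listed target genes was compared. The activity of these regulators was not measured. Of 25 hypoxia targets 23 were lower and 2 higher, with a median of -0.41. Limma called 5 of them lower, where 1.45% of all genes tested were called lower. At an unadjusted p under 0.05 by limma, 17 were lower and 0 higher, against 1354 and 1596 of all 13056 genes. Ddit4, an inhibitor of mTORC1, fell by 1.33 (SE 0.13, limma adjusted p = 0.0227), Ero1a, an endoplasmic reticulum oxidase, by 1.29 and Slc2a3, a glucose transporter, by 1.01. Of 16 glucocorticoid receptor targets 14 were lower and 2 higher, with a median of -0.17 and 4 called lower, against the same 1.45%. By limma 6 of them were lower and 0 higher at an unadjusted p under 0.05. Cebpd, a C/EBP-family transcription factor, fell by 1.75 (SE 0.19, limma adjusted p = 0.0240). Rgs2, a G protein regulator, fell by 1.34 and Dusp1, a MAP kinase phosphatase, by 1.33. Several of these genes answer to other signals as well. Tsc22d3, Fkbp5, Per1 and Zbtb16, from the same list, differed by -0.060, -0.29, 0.032 and 0.019, and none of them was called. The mean levels of Tsc22d3 and Zbtb16 lay little above the background of 4.28. Sgk1, also on the list and called lower, differed by -0.57. Tiparp and Klf9, which were not called, differed by -0.43 and -0.33. The genes from Tsc22d3 to Klf9 were named after their values were seen. Of 12 upstream factors limma called 0 (at an unadjusted p under 0.05, 1 was higher and 4 lower): Arnt, the partner of the hypoxia factors, differed by -0.60 (SE 0.11, limma adjusted p = 0.0527), Hif1a by -0.35 (SE 0.11) and Nr3c1, the glucocorticoid receptor (named after its value was seen), by 0.12 (SE 0.10). These lists were chosen with earlier results of these arrays known, and whether any of these regulators had a part in the Angptl4 difference was not tested.

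**Figure D3:**
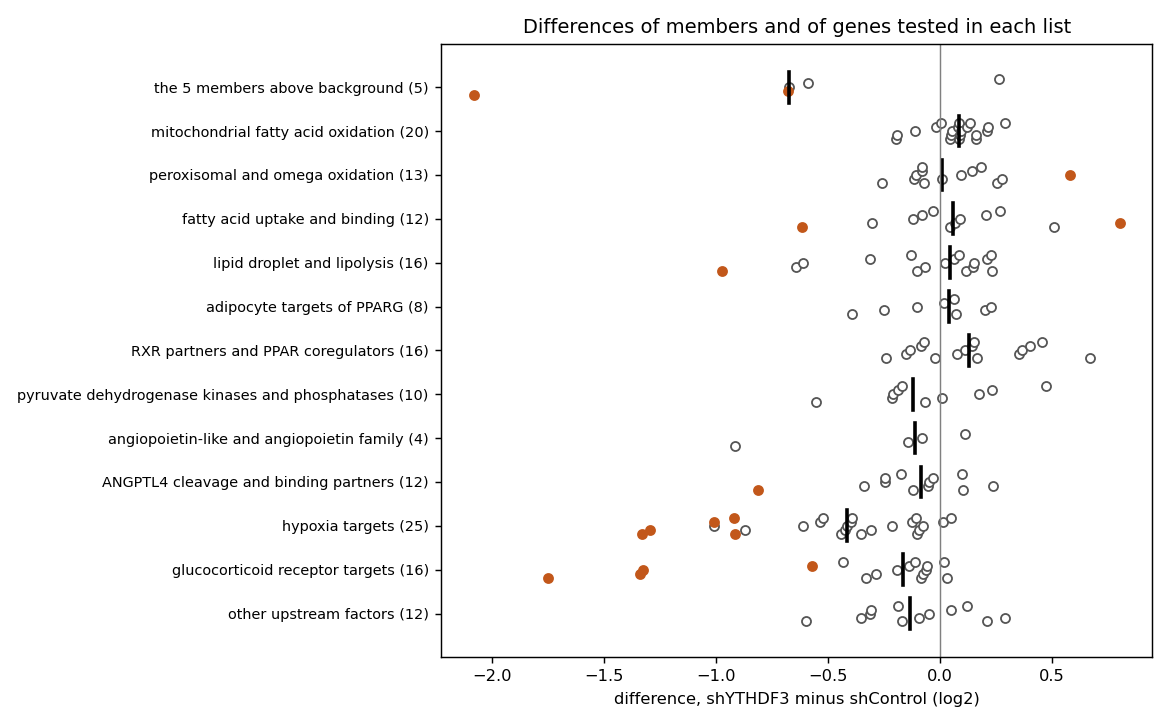
Differences, shYTHDF3 minus shControl (x axis, log2), of the 5 members above background and of the genes tested in 12 lists (y axis, number of genes in brackets). Filled points were called by limma, open points were not, and the black bar is the median; the medians of the fat oxidation, uptake and droplet lists lie between 0.0090 and 0.084, that of the members at -0.67 and that of the hypoxia targets at -0.41.

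The median difference of the 5 members above background was -0.67, with a range of -0.79 to -0.56 over the fits that omitted an array. The genes whose 4 values most resembled those of Angptl4, after centring each gene on its own mean, were Stfa3, Ccl9, Ptgs2, Cfb, F5, Saa3, Nos2 and Steap1, at root mean square distances of 0.077 to 0.22 log2 units over 4 arrays. With so few arrays this likeness reflects mainly the size of the group difference. Stfa3, a stefin, ended below background in shYTHDF3 and belongs to a family of near-identical copies. None of the 8 was on a list of PPAR targets used here. Those lists were chosen with earlier results of these arrays known, so this absence is not a result about PPARs. By the same measure Cpt1a ranked 154, Plin2 171, Hilpda 246 and Ppard 11230, at distances of 0.70, 0.72, 0.76 and 1.18.

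**Figure D4:**
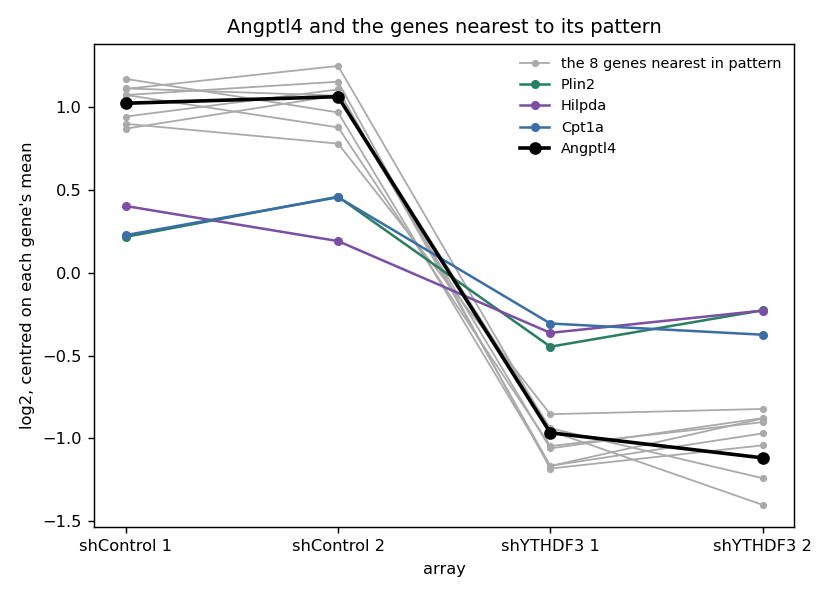
Values on the 4 arrays (x axis) centred on each gene's own mean (y axis, log2) for Angptl4, the 8 genes nearest to its pattern and 3 other targets. The 8 genes follow Angptl4 within 0.22 log2 units (root mean square), whereas Cpt1a, Plin2 and Hilpda run the same way over a smaller range.

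Fabp4 and Cd36 also mark adipocytes, macrophages and endothelium, and defining markers of those cells were checked in the same arrays. Of 5 adipocyte markers only Plin1 exceeded background (Adipoq, Cidec, Lep and Retn did not), differing by 0.063 (SE 0.11), and the summed log2 level was 19.8 and 20.1 in shControl and 19.4 and 20.1 in shYTHDF3. Of 8 endothelial markers Cdh5 and Vwf lay barely above it, differing by -0.053 (SE 0.10) and 0.086 (SE 0.09), with sums of 31.2 and 31.5 against 31.6 and 31.5. Neither list had a gene called by limma (0 at an unadjusted p under 0.05).

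Macrophage, fibroblast and carcinoma markers moved more. Of 11 macrophage markers Cd14, Cd68 and C1qa exceeded background, Adgre1, Csf1r and Ptprc did not, and the sums were 49.9 and 51.0 against 49.2 and 48.6. The 3 measured genes were all lower on average, and limma called 0 (1 lower at an unadjusted p under 0.05). Cd68, a lysosomal glycoprotein, read 7.30 and 7.57 against 6.62 and 6.82, a difference of -0.72 (SE 0.13, limma adjusted p = 0.0547), and Cd14, a lipopolysaccharide coreceptor, differed by -0.30 (SE 0.12). With an intensity trend Cd68 was called lower.

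Of 8 fibroblast markers 7 exceeded background, of which 5 were lower and 2 higher, and the sums were 43.1 and 44.4 against 40.1 and 40.4. Most of the drop in the sum was that of Dcn, the proteoglycan decorin, which fell by 2.65 (SE 0.12, limma adjusted p = 0.00474). Pdgfra, which encodes a receptor tyrosine kinase, fell by 0.61 (limma adjusted p = 0.0471, SE 0.10), while Pdgfrb and Col1a1 differed by 0.21 and 0.096. Of 10 carcinoma markers of 4T1 cells 7 exceeded background, 4 higher and 3 lower, while Epcam, Krt14 and Cldn7 did not, and the sums were 67.3 and 67.2 against 68.8 and 68.7. The type II keratin gene Krt7 read 5.55 and 5.58 in shControl and rose to 6.99 and 7.15 (limma adjusted p = 0.00816, SE 0.10). Krt18 differed by 0.57 and Cd44 by -0.51, which did not pass and were named after their values were seen. The Krt7 and Pdgfra calls ended without any 1 of the 4 arrays, the Pdgfra call also without the filter or with a common median, and the Dcn call when either of the shControl arrays was left out. The arrays read a puromycin-selected culture of a carcinoma subline, so the marker names do not show that adipocytes, macrophages, endothelium or fibroblasts were present. Whether the make-up of the culture had a part in the members' differences was not tested. In such a bulk measurement fewer expressing cells and less RNA per cell cannot be told apart.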

How the data were processed

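Total RNA was biotin-labelled and read on 4 Affymetrix arrays per the labels' protocols, and titles assigned 2 to shControl and 2 to shYTHDF3. The deposited values are log2 expression per probe set, which the authors made by RMA (per the submitters' processing notes). The log base was inferred from the range; the sources used here do not give the software. The method makes array distributions alike, so a shift of most genes would not be seen. Of 41345 probe sets 23521 had 1 gene symbol in the platform annotation, updated through RefSeq by Entrez identifier for 23328. A gene took its probe set with the highest mean; 13056 genes above background were tested.

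Groups were compared with limma 3.58.1 (lmFit, eBayes) in R 4.3.3 by two-sided tests; p-values were adjusted by Benjamini-Hochberg over all genes tested, and a gene was called at an adjusted p under 0.05. The members and lists were chosen with earlier results of these data known. Named were all members; from each list up to 3 called genes a direction or, with none called, the 2 largest differences; the 8 genes nearest to Angptl4 in pattern; and genes said to be named after their values were seen. Alternatives were other filters, variance models and normalizations, the mean of probe sets, the replicate number as a block, and leaving out each array. The fit was tested on simulated data. Figures used matplotlib 3.10.9.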

Additional observations from a re-analysis of the deposited data

How the results depend on the processing

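The number of arrays limits every call. Over all genes limma called 356, and 43 without the filter on dim genes, 1426 with an intensity trend, 1465 with the trend and robust estimation, 51 with the replicate number as a block, and 0 to 12 when 1 array was left out (1786 to 2607 at an unadjusted p under 0.05); such fits have fewer residual degrees of freedom. Of the members 2 were called, against 1 without the filter, 4 with the trend with or without robust estimation, 1 with the replicate block, where Angptl4 stayed called and Cpt1a did not, and 0 to 1 with an array left out. Among the pathway lists 14 genes were called, against 3 without the filter, 43 and 44 with the trend, 3 with the block and 0 with any array left out. The members' median of -0.67 was -0.32 without the filter, where it covers all 10 members, -0.65 after repeated quantile normalization or with a common median, and -0.79 to -0.56 with an array left out. The Angptl4 difference ran from -2.16 to -2.01 under all alternatives run, and no member above background changed sign. The labels do not say that replicate numbers mark a shared culture, and the differences between arrays 1 and 2 of the groups correlated at -0.066 over genes, so the block was not preferred. With a lone array in a group, that array was assumed to vary like the other group.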
